A study of Mus musculus with 15 samples.

Results

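Matrix metalloproteinases are secreted or membrane-bound zinc proteases that cut collagens, laminins, elastin and many other proteins of the extracellular matrix. They were followed here at the RNA level in injured mouse kidney and lung. The 10 members, taken by name, were Mmp2, Mmp3, Mmp7, Mmp8, Mmp9, Mmp11, Mmp12, Mmp13, Mmp14 and Mmp19, out of 56748 genes in the count table. The study treated fibrotic organs with an antibody that neutralizes leptin, a hormone of fat tissue, or with control IgG, and 15 libraries were sequenced, 3 per group.

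All mice were male C57Bl/6 animals with the genotype label WT, and the labels name no transgene or deletion. In the kidney model, mice of 10 to 12 weeks received the vehicle bicarbonate (WTK), folic acid at 200 mg/kg with control IgG (IgGK), or the same folic acid dose with the leptin antibody LepAb (LepK), and tissue was taken at day 28. Folic acid at this dose crystallizes in and injures the tubules, and fibrosis follows. In the lung model, mice of 12 weeks received bleomycin at 1.5 units/kg into the trachea, a DNA-damaging drug that causes lung fibrosis, with IgG (IgGL) or LepAb (LepL), and tissue was taken at day 14. The antibodies were given every other day at 10 mg/kg, which for the kidney is the dose the study chose for its later experiments. Whether the WTK mice received any antibody was not given in the sources used here, and no lung without bleomycin was analysed here. LepAb is a human monoclonal antibody, and the kind of control IgG was not given in the sources used here.

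The RNA came from whole tissue, so a change in the number of cells that make a transcript and a change in the amount per cell cannot be told apart. Total counts per library ranged from 25913969 to 38924788. The labels give 1 batch date for all libraries. The tissue labels were checked against markers. Slc34a1, the phosphate transporter of the proximal tubule, had 728837 summed counts in WTK and 0 in IgGL, and Sftpc, the surfactant protein of alveolar type 2 cells, had 555911 in IgGL and 0 in WTK. In lung, the IgGL libraries were uneven, and IgGL replicate 3 had the highest summed level of 10 neutrophil markers, 588 CPM against 222 and 239 CPM in the other two, and the lowest level of Mmp12. CPM are read counts scaled to the library total with edgeR's TMM factors.

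Metalloproteinases are made as inactive proenzymes and are activated by other proteases, among them plasmin, furin-like convertases and other family members. They are held in check by the TIMP proteins. Beyond collagen removal they release growth factors and cytokines, so higher RNA in a fibrotic organ does not say whether matrix is being removed or laid down. Among the members, Mmp2 and Mmp9 are gelatinases, Mmp8 and Mmp13 collagenases, Mmp3 a stromelysin, Mmp7 matrilysin, Mmp12 macrophage elastase and Mmp14 a membrane-anchored enzyme that activates pro-Mmp2. Mmp11 is stromelysin-3, which is activated inside the cell by furin.

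In the table's build, GRCm39, 5 members lay on chromosome 9 in a stretch of 427 kb from 7272514 to 7699586, in the order Mmp13, Mmp12, Mmp3, Mmp8 and Mmp7, all on the plus strand. That stretch held 10 Mmp genes in all. Mmp2 was on chromosome 8 (93553919 to 93580048), Mmp9 on chromosome 2 (164782700 to 164797770), Mmp11 on chromosome 10 (75759056 to 75772330, minus strand), Mmp19 on chromosome 10 (128626779 to 128636693) and Mmp14 on chromosome 14 (54669069 to 54682821). The libraries did not keep the strand, so reads from stretches where a member overlaps another gene cannot be assigned by strand. Chchd10 overlaps Mmp11 on the other strand and had 425 to 4058 counts per library, and Tmem198b overlaps Mmp19 and had 170 to 543. The genes overlapping Mmp2 (Gm45472), Mmp7 (AV064505) and Mmp12 (Mmp1b) had at most 71, 2 and 2 counts, and ENSMUSG00000120849 inside Mmp14 had 2 to 425.

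Several family promoters are known to hold an element for AP-1, the dimer of Fos and Jun proteins that injury and cytokines induce. The RefSeq promoter table, on build GRCm38.p6, held windows for 7 of the 10 members, and none was found for Mmp2, Mmp9 and Mmp19. The letters TGANTCA, searched on both strands in the 250 bases before each start, occurred in 4 members, Mmp3, Mmp7, Mmp12 and Mmp13, and in 6.75% of all 32851 windows. The first base of the match was at position -46 in Mmp3, -63 in Mmp7, -44 in Mmp12 and -35 in Mmp13, counted back from the start. Mmp7 and Mmp12 had 2 annotated starts each, and the match lay before 1 of them. In Mmp12 the window of the earlier start (7344147 to 7344446) held no match. There the match lay before the later start (window 7347124 to 7347423), and in Mmp7 before the earlier one. The 150 bases before these starts are shown because these 4 members of the chromosome 9 cluster carried the same letters but differed in their counts, as given below, with the match in capitals.
Mmp13, chr9:7272364-7272513, plus strand: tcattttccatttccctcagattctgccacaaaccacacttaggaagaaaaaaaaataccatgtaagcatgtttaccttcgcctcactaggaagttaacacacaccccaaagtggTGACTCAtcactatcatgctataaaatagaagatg
Mmp12, chr9:7347224-7347373, plus strand: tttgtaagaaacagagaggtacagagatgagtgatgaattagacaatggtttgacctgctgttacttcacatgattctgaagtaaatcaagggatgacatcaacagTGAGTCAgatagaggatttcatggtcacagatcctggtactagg
Mmp3, chr9:7445672-7445821, plus strand: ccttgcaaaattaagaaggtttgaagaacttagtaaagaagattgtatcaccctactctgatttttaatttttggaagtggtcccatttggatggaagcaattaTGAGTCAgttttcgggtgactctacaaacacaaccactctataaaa
Mmp7, chr9:7691940-7692089, plus strand: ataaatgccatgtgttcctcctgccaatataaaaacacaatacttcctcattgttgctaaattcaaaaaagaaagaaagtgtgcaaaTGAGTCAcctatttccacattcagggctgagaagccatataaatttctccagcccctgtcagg
Mmp8, Mmp11 and Mmp14 held no match. The letters TTCNNNGAA, the core of elements bound by STAT factors, which act downstream of the leptin receptor, occurred in 0 of the 7 members with a window and in 7.02% of all windows. At that share, 0 matches among so few windows is common, so it does not show that such elements are lacking. Matches here describe letters and show no binding.

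In the kidney, folic acid injury with IgG raised 8 of the 9 members that could be tested, and none fell (edgeR, 1 lower at an unadjusted p under 0.05, and 0 lower with DESeq2). A gene was called where its absolute log2 fold change was over 0.5 and its Benjamini-Hochberg adjusted p, over all genes tested in edgeR's quasi-likelihood fit, was under 0.05. Of all 19593 genes tested, 21.7% were called higher in IgGK than in WTK and 15.6% lower. The median log2 fold change of the 9 tested members was 3.48, beside 0.04 for all genes. In the 8 called members each IgGK library lay above each WTK library, as in 32.5% of all genes. The antibody comparison ran the other way. In LepK against IgGK, 6 of 9 members fell and none rose (edgeR, 0 higher at an unadjusted p under 0.05 and 0 with DESeq2), where 5.99% of all genes were called lower and 4.38% higher, and the median log2 fold change was -1.43 beside -0.01. In 8 of 9 members the LepK libraries all lay below the IgGK libraries, as in 19.5% of all genes. LepK remained apart from WTK, with 7 of 9 members called higher, where 15.2% of all genes were. These 3 comparisons share libraries, so they are not independent of one another. The plot of kidney levels shows each library.

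**Figure D1:**
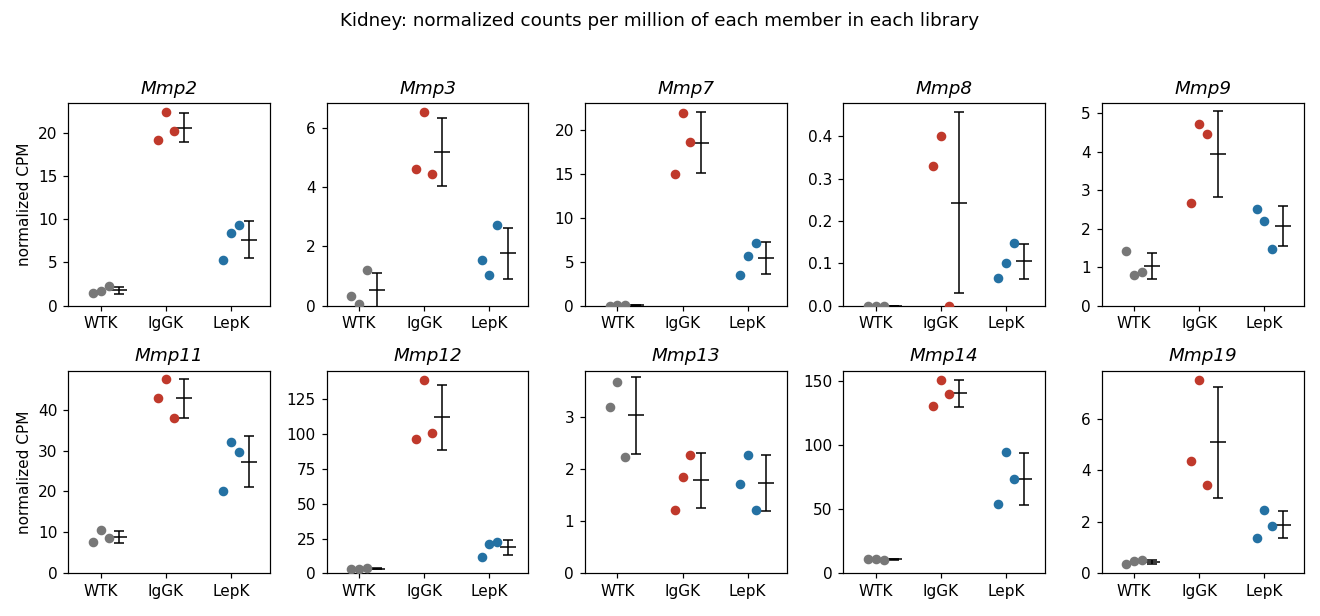
Normalized CPM of the 10 members in the 9 kidney libraries, with 1 panel per gene and a linear axis from 0. Points are libraries in the order of their replicate number, and the bars give the mean and SD of 3 libraries, cut off at 0. For Mmp2, Mmp7, Mmp11, Mmp12, Mmp14 and Mmp19 the LepK points lie between those of WTK and IgGK, while the mean of Mmp13 was highest in WTK.

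Mmp2 (gelatinase A), which cuts denatured collagen and basement membrane collagen, had 1.41, 1.70 and 2.23 CPM in the WTK libraries, 19.1, 22.4 and 20.2 in IgGK and 5.23, 8.34 and 9.33 in LepK. No library of one group overlapped another group. Mmp2 was 11.5-fold higher in IgGK than in WTK (log2 fold change 3.52, SE 0.23, edgeR adjusted p = 1.54e-07). Under LepAb it was 2.70-fold lower than in IgGK (-1.43, SE 0.20, edgeR adjusted p = 0.00065), which left it 4.25-fold above WTK (edgeR adjusted p = 3.2e-05). Mmp9 (gelatinase B), which myeloid cells store and secrete, had 1.41, 0.789 and 0.865 CPM in WTK, 2.67, 4.71 and 4.45 in IgGK and 2.50, 2.21 and 1.48 in LepK. It was 3.87-fold higher in IgGK than in WTK (1.95, SE 0.34, edgeR adjusted p = 0.000359). LepK lay below IgGK without overlap, but the difference of -0.93 (SE 0.32) missed the threshold with an edgeR adjusted p of 0.0591. It was called without IgGK replicate 1, the lowest of its group (-1.13, edgeR adjusted p = 0.0347). LepK stayed above WTK by 1.02 (edgeR adjusted p = 0.0338), a call that was lost without WTK replicate 2 (0.87, adjusted p = 0.111), WTK replicate 3 (0.91, 0.104), LepK replicate 1 (0.86, 0.0955) or LepK replicate 2 (0.97, 0.0799).

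Of the members classed above as collagenases, which cut fibrillar collagen, Mmp13 was not called in the kidney. Mmp8 had too few counts there for the main fit. Mmp13 (collagenase 3), the main interstitial collagenase of rodents, had 3.20, 3.67 and 2.23 CPM in WTK, 1.22, 1.86 and 2.28 in IgGK and 1.71, 2.28 and 1.22 in LepK. Its highest values were in uninjured kidney, and the groups overlapped by 1 library. The log2 difference between IgGK and WTK was -0.76 (SE 0.33, edgeR adjusted p = 0.0722), and it passed the threshold without WTK replicate 3 (-0.94, edgeR adjusted p = 0.0477). LepK and IgGK differed by -0.04 (SE 0.34, edgeR adjusted p = 0.951). Mmp8 (neutrophil collagenase) had 0, 0 and 0 counts in WTK, 10, 14 and 0 in IgGK and 2, 3 and 4 in LepK, too few for a test. Against a floor of 3 counts over the WTK group, its level was at least 6.17-fold higher in IgGK and at least 2.65-fold higher in LepK. The IgGK to LepK ratio was 2.33, with a 95% counting interval of 1.05 to 5.69 that covers counting error only, and IgGK replicate 3 held no count. With no filter on low counts, Mmp8 in IgGK against WTK was at 5.86 on the log2 scale (edgeR adjusted p = 0.0129). DESeq2 gave 5.08 (DESeq2 adjusted p = 0.0173).

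Mmp3 (stromelysin-1) cuts proteoglycans, laminin and fibronectin and can activate other proenzymes. It had 0.332, 0.0395 and 1.19 CPM in WTK, 4.64, 6.54 and 4.45 in IgGK and 1.55, 1.04 and 2.73 in LepK. It was 9.74-fold higher in IgGK than in WTK (3.28, SE 0.64, edgeR adjusted p = 0.00082), and without WTK replicate 3 the log2 difference was 4.80. The uninjured libraries spread widely, and WTK replicate 3 reached into the range of LepK. Mmp3 was lower in LepK than in each IgGK library, by -1.56 on the log2 scale (SE 0.57), which missed the threshold (edgeR adjusted p = 0.0729). The LepK to WTK difference of 1.72 also missed it (edgeR adjusted p = 0.0524), and passed without WTK replicate 3 (3.24, adjusted p = 0.00378) or LepK replicate 2 (1.99, adjusted p = 0.0377). Mmp11 (stromelysin-3) was already present in uninjured kidney, at 7.60, 10.5 and 8.69 CPM, and reached 42.8, 47.5 and 37.9 in IgGK. LepK had 20.2, 32.0 and 29.7. The 4.79-fold rise (2.26, SE 0.17, edgeR adjusted p = 3.92e-07) was among the smaller ones, and so was the 1.56-fold fall under LepAb (-0.65, SE 0.16, edgeR adjusted p = 0.0124). That fall was lost without IgGK replicate 2 (-0.56, adjusted p = 0.0524), and without LepK replicate 1 it was under the fold threshold (-0.47).

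Mmp7 (matrilysin) is a small enzyme that epithelial cells make and that cuts E-cadherin among other substrates. Nearly absent before injury, Mmp7 had the second highest mean in CPM per kb after it, behind Mmp14. Its range of 14 to 20.6 overlapped that of Mmp12, 13.4 to 19.2 CPM per kb. It had 0, 2 and 1 counts in WTK, 454, 769 and 643 in IgGK and 106, 169 and 191 in LepK, or 15 to 21.9 CPM in IgGK and 3.49 to 7.05 CPM in LepK. The groups did not overlap. From summed counts, IgGK was 480-fold above WTK with a 95% counting interval of 164 to 2330, and LepK was 137-fold above (46.7 to 668). With 3 counts in WTK these ratios are loosely bounded, and the fitted log2 fold change of 8.75 (SE 0.46, edgeR adjusted p = 4.03e-08) moved to 9.62 without WTK replicate 2. In LepK against WTK it was 6.97, and 7.85 without that library. Under LepAb, Mmp7 fell 3.43-fold (-1.78, SE 0.25, edgeR adjusted p = 0.000648).

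Mmp12 (macrophage elastase), which degrades elastin and is a product of macrophages, showed the largest fall under LepAb of the 9 members tested. WTK libraries had 3.16, 3.16 and 3.89 CPM, IgGK libraries 96.8, 139 and 101, and LepK libraries 12.1, 21.2 and 22.6. Mmp12 was 32.8-fold higher in IgGK than in WTK (5.04, SE 0.24, edgeR adjusted p = 2.44e-08). It was 6.02-fold lower in LepK than in IgGK (-2.59, SE 0.20, edgeR adjusted p = 5.62e-05) and 5.45-fold above WTK (edgeR adjusted p = 1.52e-05). The LepK mean was 16.7% of the IgGK mean (SD 5.08, n = 3), where that of Mmp11 was 63.9% and that of Mmp14 52.6%.

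Mmp14, the membrane-anchored activator of pro-Mmp2, was the most even member between animals of uninjured kidney, with 11, 10.9 and 10.8 CPM. It reached 130, 151 and 140 in IgGK and was 53.8, 94.3 and 73.5 in LepK. It was 12.9-fold higher in IgGK than in WTK (3.69, SE 0.17, edgeR adjusted p = 1.79e-08) and 1.90-fold lower in LepK than in IgGK (-0.93, SE 0.15, edgeR adjusted p = 0.00126). Its level in LepK remained 6.78-fold above WTK (edgeR adjusted p = 6.39e-07). Mmp19, a secreted enzyme with basement membrane substrates, had 0.374, 0.474 and 0.505 CPM in WTK, 4.35, 7.51 and 3.41 in IgGK and 1.38, 2.44 and 1.84 in LepK. It was 11.2-fold higher in IgGK than in WTK (3.48, SE 0.38, edgeR adjusted p = 7.6e-06) and 2.69-fold lower in LepK than in IgGK (-1.43, SE 0.33, edgeR adjusted p = 0.00959). IgGK replicate 2 weighed on the second call, which without it was -1.03 with an edgeR adjusted p of 0.0615. LepK was 4.15-fold above WTK (edgeR adjusted p = 0.00122).

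The libraries tended to be ordered alike across members. IgGK replicate 2 was the highest of its group in 9 of 10 members, and LepK replicate 1 the lowest of its group in 7 of 10. Marker sums differed between the same groups. The summed level of 12 macrophage markers was 290 to 333 CPM in WTK, 2070 to 2600 in IgGK and 782 to 1130 in LepK, and LepK replicate 1 was the lowest of its group at 782. Of the 12 markers, 11 rose with injury, and 10 fell in LepK against IgGK (median -1.17). Lyz2, which encodes lysozyme, rose by 4.84 and fell by 1.47 on the log2 scale. The 10 fibroblast markers summed to 177 to 223 CPM in WTK, 622 to 692 in IgGK and 347 to 472 in LepK, with 10 called higher after injury (median 1.81) and 7 called lower under LepAb (median -0.88). The 10 markers of injured tubule summed to 317 to 345, 1180 to 1250 and 710 to 884 CPM, with 9 called higher and then 6 lower, among them Havcr1, the kidney injury molecule, at 6.99 and -1.16. Neutrophil markers were few, at 2.57 to 2.85, 17.8 to 26.1 and 7.93 to 11.5 CPM. Of the 10, 5 could be tested, 4 were called higher in IgGK than in WTK and 4 lower in LepK than in IgGK, and Ly6g and Camp were at 0 in WTK and IgGK. With 1 library left out, the 4 higher calls held in each fit, but only 1 to 3 were called lower in LepK. The 8 proximal tubule markers, which define the healthy kidney, summed to 48900 to 50900, 11900 to 18700 and 25900 to 35100 CPM, with all 8 called lower after injury and 7 called higher under LepAb. The part of these cell types in the members' differences was not tested.

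In the lung, LepL against IgGL gave lower values for 7 of 9 members tested. Of these, 4 fell (Mmp3, Mmp8, Mmp14 and Mmp19), and no member rose (edgeR, 0 higher at an unadjusted p under 0.05 and 0 with DESeq2), where 2.36% of all 19617 genes tested were called lower and 1.78% higher. The median log2 fold change of the members was -0.94, beside 0 for all genes. In 7 of 9 members the LepL libraries all lay below the IgGL libraries, as they did for 17.3% of all genes. These calls rest on 5 of the 6 libraries. Without IgGL replicate 1 there were 7 calls, and without any of the other 5 libraries there were 0 (edgeR, 7 at an unadjusted p under 0.05 in each). The adjusted p in those 5 fits ran from 0.0548 to 0.176 for Mmp3, 0.0655 to 0.175 for Mmp8, 0.0642 to 0.193 for Mmp14 and 0.0897 to 0.217 for Mmp19, while each fold change stayed negative. The lung calls of the other gene lists given further on behaved alike. They held without IgGL replicate 1 and were lost without any of the other 5 libraries, except that the fibroblast marker Pdgfrb was also called without IgGL replicate 3.

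**Figure D2:**
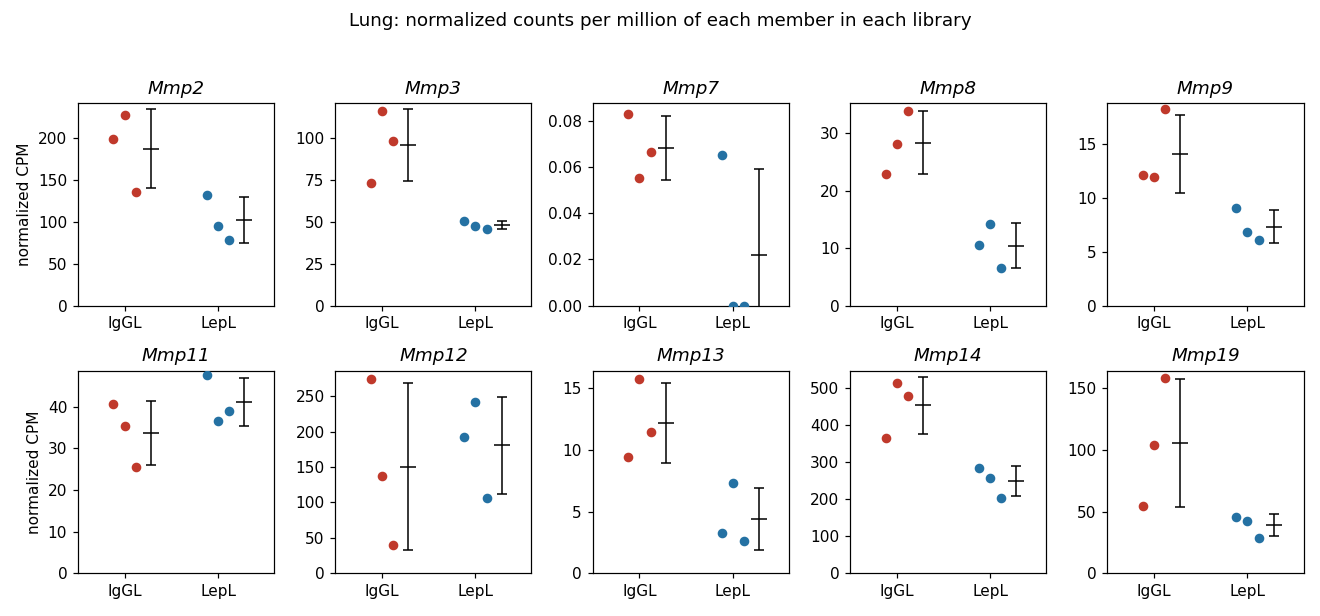
Normalized CPM of the 10 members in the 6 lung libraries, drawn as in the kidney plot, with points for libraries and bars for the mean and SD of 3 libraries. The LepL points lie below the IgGL points for 7 members, and for Mmp12 the IgGL libraries span 40.7 to 274 CPM.

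Mmp14, the member with the highest mean level per kb, had 366, 515 and 479 CPM in IgGL and 284, 258 and 204 in LepL. It fell 1.82-fold under LepAb (-0.87, SE 0.17, edgeR adjusted p = 0.0365). Mmp2 had 199, 227 and 135 CPM in IgGL and 132, 95.4 and 78.3 in LepL, groups that were apart by a narrow gap. Its difference of -0.88 (SE 0.23) missed the threshold with an edgeR adjusted p of 0.0597 and passed it without IgGL replicate 1 (-0.83, adjusted p = 0.0399). Mmp9 had 12.1, 11.9 and 18.2 CPM in IgGL and 9.03, 6.86 and 6.09 in LepL. Its difference of -0.94 (SE 0.23, edgeR adjusted p = 0.0544) was likewise called without IgGL replicate 1 (-1.04, adjusted p = 0.0183). With DESeq2, Mmp2, Mmp9 and Mmp13 were called too (adjusted p 0.00119, 0.00242 and 0.000494).

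Mmp8, scarce in kidney, had 23.0, 28.2 and 34.0 CPM in IgGL and 10.5, 14.3 and 6.52 in LepL, a 2.72-fold fall (-1.44, SE 0.27, edgeR adjusted p = 0.0354). The neutrophil markers as a sum were lower in LepL too. They summed to 222 to 588 CPM in IgGL and 118 to 143 in LepL, and 4 of 9 tested were called lower (median -1.47), among them S100a8, a subunit of calprotectin, at -2.02. Camp and Mpo, picked after their values were seen, had higher means in LepL, at 1.58 and 0.236 CPM against 1.03 and 0.157 in IgGL. The means of the other listed markers were lower. IgGL replicate 3 was highest for both Mmp8 and the neutrophil sum. Whether these markers bear on the difference in Mmp8 was not tested. Mmp13 had 9.41, 15.7 and 11.4 CPM in IgGL and 3.26, 7.29 and 2.64 in LepL. The difference of -1.47 (SE 0.38) was as large as that of Mmp8 but missed the threshold (edgeR adjusted p = 0.0603), which it passed without IgGL replicate 1 (-1.62, adjusted p = 0.0194).

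Mmp3 had 72.9, 116 and 98.2 CPM in IgGL and 50.7, 47.6 and 45.7 in LepL. The LepL libraries were close to each other, and Mmp3 fell 1.99-fold (-1, SE 0.16, edgeR adjusted p = 0.0327). Mmp19 had 54.8, 104 and 158 CPM in IgGL and 46.1, 42.5 and 29.0 in LepL, a 2.70-fold fall (-1.43, SE 0.34) that stood at the threshold with an edgeR adjusted p of 0.0499. With DESeq2-style RLE scaling in edgeR the adjusted p was 0.0504. The fibroblast markers summed to 1760 to 1830 CPM in IgGL and 1220 to 1380 in LepL, with 4 of 10 called lower (median -0.23), among them Col15a1 at -1.11 and Pdgfra at -0.90. The other 6 were not called and lay on both sides of 0, and of these, picked after their values were seen, Postn was at -0.32, Dcn at 0.16, Thy1 at 0.18 and Tcf21 at 0.67 (edgeR adjusted p = 0.161). Their part in these differences was not tested.

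Mmp11 and Mmp12 had no lower mean in LepL. Mmp11 had 40.6, 35.3 and 25.5 CPM in IgGL and 47.6, 36.7 and 38.9 in LepL (0.28, SE 0.18, edgeR adjusted p = 0.347), and the groups overlapped. Mmp12 had 274, 137 and 40.7 CPM in IgGL and 192, 242 and 107 in LepL, a 6.73-fold range within IgGL alone. The fitted difference of 0.26 (SE 0.56, edgeR adjusted p = 0.80) had a sign that rested on single libraries, at -0.19 without IgGL replicate 3 and -0.01 without LepL replicate 2. The 12 macrophage markers summed to 7520, 6070 and 4600 CPM in the IgGL libraries and to 9020, 8670 and 8670 in LepL. Of these markers 3 were called lower in LepL, Fcgr1 and Mrc1 at -1.28 and -1.06 among them, and the list had a median of -0.68. At an unadjusted p under 0.05, edgeR gave 9 lower and 1 higher. Lyz2, at 2200 to 5320 CPM in IgGL (mean 3640) and a mean of 7160 in LepL, made up most of the macrophage sum. The sum thus mainly follows Lyz2 and not the list as a whole. The 8 alveolar type 2 markers summed to 13600, 9290 and 7430 CPM in the IgGL libraries and 19500, 22900 and 26100 in LepL, with 4 called higher. Whether these markers bear on the spread of Mmp12 was not tested. Mmp7, the matrilysin that rose so far in kidney, had 3, 2 and 2 counts in IgGL and 2, 0 and 0 in LepL. Its ratio of 3.58 has a counting interval of 0.682 to 35.3, so no difference was detectable at this depth.

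The difference between the antibody's effect in kidney and in lung was tested in 1 fit of the 12 libraries from injured organs. The organ, the injuring agent, the day and the age differ together and cannot be told apart. Called here means an adjusted p under 0.05 with no fold threshold. In that fit 7.12% of 21488 genes were called, and 1 of the 10 members was, a share near that of all genes. The called member was Mmp12, with a kidney minus lung difference of -2.82 on the log2 scale (SE 0.70, edgeR adjusted p = 0.0328). Its kidney effect was -2.59, and its lung effect, which was not called, was 0.26. The call held without IgGL replicate 1 (-3.57, adjusted p = 0.00261), IgGL replicate 3 (-2.40, 0.0231) or LepL replicate 3 (-3.09, 0.0497). It was lost when any of the other 9 libraries was left out, where the values ran from -2.98 to -2.55 and the adjusted p from 0.0537 to 0.0852. Mmp11 was next at -0.90 (SE 0.26, edgeR adjusted p = 0.0545). The differences were -0.03 (SE 0.26) for Mmp14, 0.03 (SE 0.56) for Mmp19 and 0.04 (SE 0.40) for Mmp9, and 1.45 (SE 0.55, edgeR adjusted p = 0.118) for Mmp13. None of these passed, which does not show that the effects were alike.

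**Figure D3:**
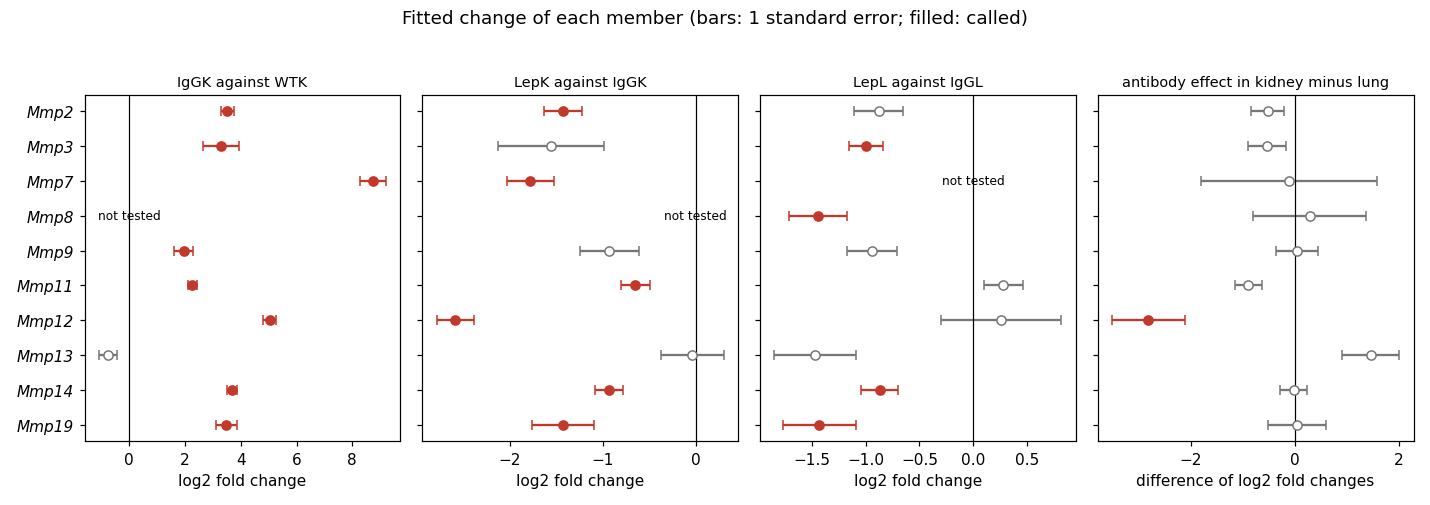
Fitted log2 fold changes of the 10 members in 3 comparisons, and in the last panel the difference between the kidney and lung effects, with bars of 1 standard error. Filled points passed the thresholds, and each panel has its own axis. Injury raised 8 members, and of the kidney-lung differences only that of Mmp12, at -2.82, was called.

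Levels of different genes were compared as CPM per kilobase of the gene length in the table. Order and shares depend on this length, which was 1068 bases for Mmp7 and 7237 for Mmp12. Without it, their IgGK means were 18.5 and 112 CPM. The summed level of the 10 members was 7.91 CPM per kb in WTK (SD 0.544), 84.0 in IgGK (SD 11.2), 34.9 in LepK (SD 8.31), 268 in IgGL (SD 28.8) and 157 in LepL (SD 28.5), each with n = 3. No kidney library of one group reached the range of another, and all LepL libraries were below all IgGL libraries. The make-up of this sum changed too. In uninjured kidney Mmp11 held 40.4% of it (SD 4.12), Mmp14 23.2% (SD 1.75) and Mmp13 14.4% (SD 3.47). After injury Mmp14 led with 28.2% (SD 1.76), followed by Mmp7 with 20.5% (SD 1.70), Mmp11 with 18.4% (SD 1.80) and Mmp12 with 18.3% (SD 1.32), and the ranges of Mmp7, Mmp12 and Mmp11 in CPM per kb overlapped between neighbours in this order. Mmp13 was down to 0.796%. Under LepAb, Mmp14 and Mmp11 held 35.4% (SD 3.36) and 28.2% (SD 0.423), while Mmp12 held 7.30% (SD 0.766).

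The lung had another make-up. Mmp14 held 28.3% in IgGL (SD 3.09), Mmp2 20.7% (SD 4.51), Mmp3 19.7% (SD 2.79) and Mmp19 11.2% (SD 5.61), and each of these overlapped its neighbour in CPM per kb. In LepL the order began with Mmp14 at 26.6% (SD 0.732), Mmp2 at 19.1% (SD 2.44), Mmp3 at 17.2% (SD 2.61) and Mmp12 at 15.5% (SD 4.17). In CPM, each organ scaled apart, the IgGK mean of Mmp3 was 5.44% of the IgGL mean, that of Mmp19 4.82%, that of Mmp2 11% and that of Mmp8 0.857%. Mmp11 and Mmp12 were nearest to equal, at 126% (SD 14.1) and 74.4% (SD 15.4). Mmp7 was the one member with high counts in kidney alone, 1866 summed counts in IgGK against 7 in IgGL.

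**Figure D4:**
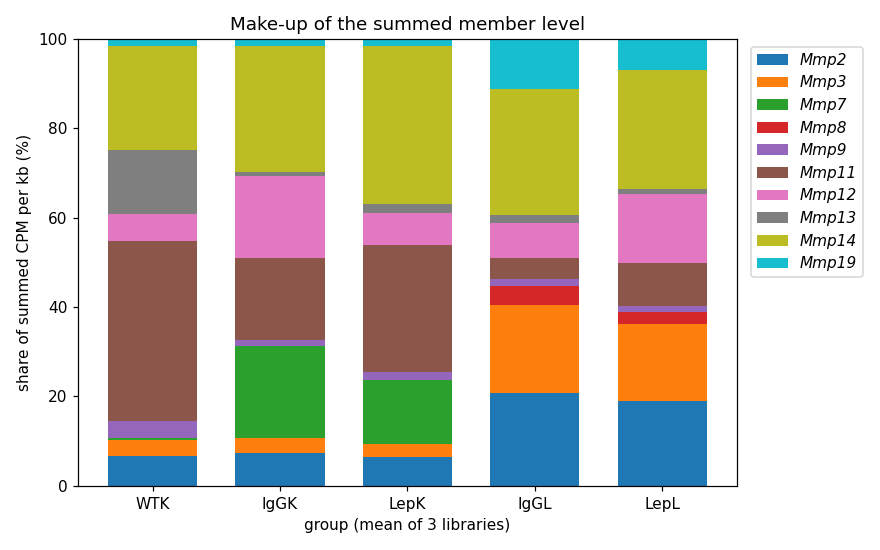
Share of each member in the summed CPM per kb of the 10 members, as the mean of 3 libraries in each of the 5 groups. Mmp11 leads in WTK with 40.4%, Mmp7 holds 20.5% in IgGK, and Mmp2 and Mmp3 hold 20.7% and 19.7% in IgGL.

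The inhibitors moved apart from one another. Timp1, the secreted inhibitor induced by injury, had 0.872, 0.513 and 0.793 CPM in WTK, 23.9, 30.3 and 22.5 in IgGK and 6.22, 12.1 and 12.5 in LepK. It rose by 5.13 (SE 0.30, edgeR adjusted p = 7.27e-08) and fell under LepAb by 1.32 (SE 0.23, edgeR adjusted p = 0.00189) on the log2 scale. Timp3, which binds to the matrix, went the other way, with 1030, 982 and 927 CPM in WTK and 330, 268 and 303 in IgGK (-1.70, SE 0.12, edgeR adjusted p = 2.45e-07). Its LepK to IgGK difference of 0.30 missed the threshold (edgeR adjusted p = 0.0943). Timp2, which takes part in the activation of pro-Mmp2 by Mmp14, rose by 1.78 after injury (edgeR adjusted p = 9.37e-07), and its difference of -0.50 under LepAb was under the fold threshold. Over the list of 7 inhibitors, 3 rose and 2 fell after injury (median 0.26), and 1 rose and 1 fell under LepAb (median -0.18). The other calls were A2m, which encodes a broad protease trap, at 2.30 after injury, and its relative Pzp at -2.86 after injury and 1.09 under LepAb.

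In lung, Timp1 had 208, 411 and 910 CPM in IgGL and 120, 113 and 71.2 in LepL, and fell by 2.33 (SE 0.47, edgeR adjusted p = 0.0387). A2m fell by 2.09 (edgeR adjusted p = 0.042), and the other 4 inhibitors tested were not called (median of the list -0.39). With 1 library left out, the adjusted p reached 0.195 for Timp1 and 0.194 for A2m. The ratio of the members' summed level to that of the TIMP genes, both per kb, was 0.0576 in WTK (SD 0.00655), 0.68 in IgGK (SD 0.0554) and 0.355 in LepK (SD 0.0732). In lung it was 0.344 in IgGL (SD 0.125) and 0.407 in LepL (SD 0.0368), and the 2 groups overlapped, with 0.447, 0.379 and 0.205 in IgGL. Set against Timp1 alone, the ratio ran otherwise. It was 10.3 in WTK (SD 3.70), where Timp1 was scarce, 2.93 in IgGK (SD 0.20) and 3.12 in LepK (SD 0.463), with IgGK and LepK overlapping. In lung it was 1.05, 0.649 and 0.252 in IgGL and 1.33, 1.31 and 1.56 in LepL, and these groups did not overlap. These are ratios of RNA and say nothing of enzyme activity.

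Of the remaining 13 genes of the family, 8 could be tested in kidney. In IgGK against WTK, 6 of 8 were called higher (median 2.11), and 3 fell under LepAb (median -0.56). Mmp23, a membrane-anchored member, rose by 2.34 and fell by 0.64 (edgeR adjusted p = 0.00904), and Mmp25, known from leukocytes, rose by 2.66 and fell by 1.66 (edgeR adjusted p = 0.00544). The fall of Mmp23 did not pass the fold threshold without LepK replicate 1, while that of Mmp25 was called in all 6 fits with 1 library left out. Mmp27, a neighbour of Mmp8 in the chromosome 9 cluster, had 0 summed counts in WTK, 89 in IgGK and 15 in LepK. Its call as lower in LepK than in IgGK was lost in each of the 6 fits with 1 library left out (edgeR adjusted p 0.0525 to 0.193). Mmp28, called higher after injury, kept that call in 2 of 6 such fits (edgeR adjusted p up to 0.0805). Mmp15, a membrane-type enzyme related to Mmp14, rose by 1.88 after injury, differed by -0.14 between LepK and IgGK (edgeR adjusted p = 0.651), and was the 1 gene of this list called in lung. There it was higher under LepAb, with 84.8, 48.6 and 40.2 CPM in IgGL and 136, 139 and 163 in LepL (1.34, SE 0.25, edgeR adjusted p = 0.035). With 1 library left out the value ran from 1.13 to 1.72 and the adjusted p reached 0.181. Its kidney minus lung difference was called as well (-1.45, SE 0.33, edgeR adjusted p = 0.0242), but not without IgGK replicate 2, LepK replicate 1, LepK replicate 3, IgGL replicate 2 or LepL replicate 3 (edgeR adjusted p up to 0.0682). Mmp10, a stromelysin of the same cluster, had 2.27, 8.93 and 11.5 CPM in IgGL and 1.57, 0.934 and 0.126 in LepL (-3.14, SE 0.79, edgeR adjusted p = 0.056).

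Of 14 genes for matrix proteins and other substrates, 13 rose after kidney injury (median 1.98), 10 fell in LepK (median -0.94) and 11 fell in LepL (median -1.25). Col3a1, which encodes the type III collagen chain, was at 3.91 and -1.52 in the 2 kidney comparisons, and Tnc, which encodes tenascin-C, at -2.36 in lung. Of 13 activators and genes of the plasmin system, 4 rose and 4 fell after kidney injury (median 0.52), 2 rose and 4 fell in LepK (median 0.15), and 4 of 10 tested fell in LepL (median -1). Pcsk5, a furin-like convertase, was at -1.42 in lung with a kidney minus lung difference of 1.53 (edgeR adjusted p = 0.00895), and Furin, which activates Mmp11 and Mmp14, had a difference of 1.30 (edgeR adjusted p = 0.0107). Of the 8 AP-1 genes, all 7 tested rose after kidney injury (median 1.93), 3 fell in LepK (median -0.68), and 0 of 8 were called in LepL (median -0.20), where edgeR gave 1 higher and 1 lower at an unadjusted p under 0.05 and DESeq2 called 1 lower. Atf3, an injury-induced factor of this group, was at 3.44 and -1.07 in kidney. Its fall in LepK was called in 2 of 6 fits with 1 library left out (edgeR adjusted p up to 0.0725), and 1 to 5 AP-1 genes were called in those fits. The kidney minus lung difference of Atf3 was called (-1.24, edgeR adjusted p = 0.0205), but not without IgGK replicate 2, LepK replicate 1 or IgGL replicate 2 (edgeR adjusted p up to 0.0535). Of the 10 injured-tubule markers, which other epithelia also express, 1 was called in lung, Cldn4 at -0.88.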

How the data were processed

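RNA was sequenced from 15 libraries, 3 in each of the groups WTK, IgGK, LepK, IgGL and LepL, each taken as 1 mouse. Poly(A)-enriched, non-directional libraries were made. The authors deposited 1 table of raw read counts per gene, with FPKM values (scaled per kilobase and to library size) and a gene length. Per the labels' processing notes the build was GRCm39 and DESeq2 was used. The aligner, counter and annotation were not given in the sources used here. The deposited table also holds the authors' group means of normalized counts, log2 fold changes, p-values and adjusted p-values, none of which were used. A line in the sample descriptions that names a column disagrees with the titles for some libraries and was not used.

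Counts were analysed in R 4.3.3 with edgeR 4.0.16, limma 3.58.1 and, as an alternative, DESeq2 1.42.0. Genes were filtered with filterByExpr (minimum count 10, minimum total 15) and scaled by TMM factors (0.844 to 1.18). Quasi-likelihood models were fitted to the 9 kidney libraries, the 6 lung libraries and, for the kidney minus lung difference, the 12 libraries from injured organs. Standard errors are the size of the log2 fold change over the square root of F. Values in CPM use the TMM factors of each organ's own fit. At these depths 3 counts equal 0.0755 to 0.125 CPM. Between replicates the chi-square of counts was 7.15 to 98.6 per gene, far above sampling noise, so each was counted as 1 sample. In simulated data, edgeR recovered 83.3% of 4-fold and 67.7% of 2-fold changes for LepK against IgGK over 19124 genes. For LepL against IgGL over 19106 it recovered 77.3% and 49%. Only 195 and 193 of the tested genes were changed there, while the data had 2032 and 812 calls. These rates therefore need not hold for the data.

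The 10 members were named for this work. The members and the gene lists were chosen with earlier results of these data known. All members were described, the other genes of the family and the inhibitors could be named, and of each further list the 2 called genes with the largest change in a comparison, except that 1 gene is not reported here by name. Alternatives were RLE scaling, library size alone, no filter, a mean of at least 1 CPM, the replicate block, DESeq2, glmTreat, fits of only the 2 groups compared, and leaving out each library.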

Additional observations from a re-analysis of the deposited data

Results flagged for a closer look

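The difference between the antibody's effects in kidney and lung was called for Mmp12, 1 of 10 members, beside 7.12% of all genes, at -2.82 on the log2 scale (SE 0.70, edgeR adjusted p = 0.0328). The call was lost when any of 9 of the 12 libraries was left out, and several settings that kept all libraries called 2 or 3 members.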

How the results depend on the processing

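The members' counts in IgGK against WTK (8) and LepK against WTK (7) stayed within 1.5 times under all alternatives run, with 8 to 9 and 6 to 7 when 1 library was left out. In LepK against IgGK, 6 members were called, 3 with glmTreat against a log2 change of 0.5, and 4 to 7 with 1 library left out. The 4 lung calls became 7 with no filter, 7 with DESeq2, 0 with glmTreat and 0 to 7 with 1 library left out. The 1 member called in the kidney minus lung difference became 2 with library size alone, 3 with no filter, 2 with a mean of at least 1 CPM, 2 with DESeq2 and 0 to 2 with 1 library left out.

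Replicate numbers were not taken as pairs in the main fits. Correlations of same-numbered deviations ran from -0.0663 to 0.183, the highest in LepK against IgGK (0.183, 0.146 and -0.0387). With 3 libraries per group they cannot decide whether the numbers pair the samples. With the replicate block the members called were 8, 7 and 8 in IgGK against WTK, LepK against IgGK and LepK against WTK, 0 in lung (7 at an unadjusted p under 0.05, with adjusted p 0.0764 to 0.113 for the 4 called without the block; the lung calls of the other gene lists were lost too, with adjusted p 0.0637 to 0.107) and 2 in the kidney minus lung difference. Over all genes the lung comparison had 812 calls, 4 with the block, 2688 with no filter, 2294 with DESeq2, 0 with glmTreat (1901 at an unadjusted p under 0.05) and 0 to 3539 with 1 library left out. LepK against IgGK had 2032 calls, 232 with glmTreat and 1303 to 2260 with 1 left out, LepK against WTK 4415 and 2098 with glmTreat, and the difference between organs 1531, 2659 with no filter, 2772 with DESeq2 and 352 to 3763 with 1 left out.

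With library size alone, calls higher and lower were 7803 and 1178 in IgGK against WTK (4253 and 3057 with TMM), 408 and 2185 in LepK against IgGK (858 and 1174), 4782 and 512 in LepK against WTK (2984 and 1431) and 249 and 1968 in the difference between organs (754 and 777), and no called member changed direction.

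The sign reversed in differences that were not called. In the kidney minus lung difference Mmp9 was -0.22 with library size alone and -0.01 with a mean of at least 1 CPM, Mmp19 was -0.23, -0.02 and, with the replicate block, -0.04, and Mmp7 was 0.09 with DESeq2. With 1 library left out, the difference between organs ran from -0.70 to 2.38 for Mmp7, -0.32 to 0.89 for Mmp8, -0.22 to 0.23 for Mmp9, -0.24 to 0.12 for Mmp14 and -0.40 to 0.42 for Mmp19. Mmp13 in LepK against IgGK ran from -0.28 to 0.18, and Mmp12 in lung from -0.19 to 1.02. The cause was not tested. In the deposited FPKM the order of the 10 members was the same in each group. FPKM rest on the same counts and gene lengths, so this order was fixed in advance and is no check. Mmp8 in kidney and Mmp7 in lung were limited by depth.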
